A study of Mus musculus with 6 samples.

Results

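The C9orf72 complex is a protein assembly built from the products of 3 genes, C9orf72, Smcr8 and Wdr41. Its genes were followed in the newborn mouse lens after incomplete deletion of Celf1, the gene of the RNA-binding protein CELF1. The genes were chosen by name, with their measured difference between Celf1cKO and Control lenses already known. Their values in this contrast are therefore given as a description, without p-values, and where they stand against the cut-offs used for all genes supports nothing further. All 3 genes were found by symbol among the 13931 genes of the deposited expression table. C9orf72 transcripts were 4.44-fold higher in Celf1cKO lenses than in Control lenses, Smcr8 levels overlapped between the groups, and Wdr41 was lower in every Celf1cKO library by a small margin.

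C9ORF72 and SMCR8 both carry DENN domains, a fold found in regulators of small GTPases, and WDR41 is a WD repeat protein that holds the complex at the lysosome. The complex is known to work with the ULK1 kinase complex in autophagy, to accelerate GTP hydrolysis on Rab and Arf proteins, and to take part in amino acid signaling through mTORC1 at the lysosome. A repeat expansion within human C9ORF72 is a frequent genetic cause of amyotrophic lateral sclerosis (ALS) and frontotemporal dementia (FTD). In the lens, autophagy has been studied for a possible part in clearing organelles and proteins as fiber cells mature.

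RNA-sequencing was carried out on whole lenses collected from mice at birth (stage P0), with 3 Control and 3 Celf1cKO libraries. Each library was made from 2 pooled lenses, and the mice had a mixed C57BL/6 and FVB background. Celf1cKO mice carried a Celf1lacZKI allele, which is a germline knockout, and a Celf1flox allele, from which Cre recombinase made by the Pax6GFPCre transgene removed exon 5. Pax6GFPCre is active in the lens from the placode stage, and the study describes its Cre as made mainly in the lens and pancreatic lineages. The study also reports that the deletion was incomplete, since part of the Celf1 transcripts in Celf1cKO lenses still held the targeted exon. The differences given here are therefore not those of a complete loss of that exon. Which cells of the lens lost exon 5 was not measured here. The sample labels give the Control genotype as Celf1lacZKI/+, in which case both groups shared the knockout allele, whereas the methods of the study name Celf1flox mice without Cre as the usual controls. Which genotype the Control pools had was not settled here, and it touches every difference given.

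Levels are in log2 CPM, the log2 of read counts scaled to the size of each library, and the libraries held between 40694454 and 44387151 counted reads. A gene with an average log2 CPM above 1 in the authors' table is termed expressed, and 10640 genes were. An expressed gene was called elevated or reduced if its log2 fold-change lay beyond 0.58 and limma gave a Benjamini-Hochberg adjusted p-value under 0.05 over all genes. Celf1 itself, the gene targeted for deletion, was at 9.95, 9.94 and 9.34 log2 CPM in the Control libraries 1 to 3. In the Celf1cKO libraries 1 to 3 it was at 8.93, 7.66 and 7.83. It was reduced by a log2 fold-change of -1.60 (standard error 0.33, limma adjusted p = 0.0269), and Celf1cKO library 1 kept the highest level of that group. These levels count transcripts with and without the deleted exon alike, and CELF1 protein was not measured here. Of 10 lens marker genes, crystallins among them, 9 were in the table and 3 were reduced, and they summed to between 192000 and 210000 CPM in Control and between 150000 and 158000 CPM in Celf1cKO libraries, so the tissue label held in all 6. Since whole lenses were measured, fewer cells that express a gene and less RNA of that gene per cell cannot be told apart.

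C9orf72 (ENSMUSG00000028300) lies on chromosome 4 at 35191285 to 35226175 of GRCm38, on the minus strand. Smcr8 (ENSMUSG00000049323) lies on chromosome 11 at 60777524 to 60788287 on the plus strand. Wdr41 (ENSMUSG00000042015) lies on chromosome 13 at 94976344 to 95023314 on the plus strand. Their start regions are shown because they differ in base composition, with C9orf72 the richer of the pair in GC boxes. RefSeq promoters on GRCm38.p6, running from 250 bases before the start site to 50 bases after it, were matched for 2 of the 3 genes, C9orf72 at chr4:35225787-35226086 on the minus strand and Wdr41 at chr13:94976094-94976393 on the plus strand. Capitals mark GC boxes, the hexamer GGGCGG searched on both strands.
C9orf72: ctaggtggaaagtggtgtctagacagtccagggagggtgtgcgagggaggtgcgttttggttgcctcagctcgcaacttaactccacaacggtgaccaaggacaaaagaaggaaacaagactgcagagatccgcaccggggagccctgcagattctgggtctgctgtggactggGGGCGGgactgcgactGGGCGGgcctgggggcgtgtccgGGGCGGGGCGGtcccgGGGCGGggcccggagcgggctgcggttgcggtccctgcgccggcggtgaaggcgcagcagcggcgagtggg
Wdr41: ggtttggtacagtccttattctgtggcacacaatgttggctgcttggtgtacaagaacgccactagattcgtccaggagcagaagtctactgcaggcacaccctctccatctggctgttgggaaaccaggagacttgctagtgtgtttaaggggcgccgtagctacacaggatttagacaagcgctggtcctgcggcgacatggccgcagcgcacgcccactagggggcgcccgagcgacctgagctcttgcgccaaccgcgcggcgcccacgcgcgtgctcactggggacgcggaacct

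The C9orf72 promoter held 5 GC boxes, of which the third and the fourth share a base, and the Wdr41 promoter held 0. Of 32851 mouse promoters of the same length, 35.7% held a GC box and 2.71% held 5 or more. Both promoters were rich in G and C, with 67.7% and 25 CpG dinucleotides for C9orf72 and 60.7% and 23 CpG dinucleotides for Wdr41, against a median of 52.7% over all promoters. Neither held the CLEAR element GTCACGTGAC, the site of the MiT/TFE factors that regulate lysosomal genes, which 0.326% of promoters held. The E-box core CACGTG, which lies within that element, was also at 0 in both and in 7.15% of all promoters. CCAAT boxes (CCAAT) and TATA boxes (TATAAA) were at 0 in both, against 37.4% and 13.6% of all promoters, and every motif was searched on both strands. The RefSeq start of C9orf72 lay 339 bases inside the GENCODE gene, so that 251 of its 300 bases were exonic there, whereas the Wdr41 starts coincided.

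CELF1 is known to bind stretches of RNA rich in G and U, so the 3′ untranslated regions (UTRs) were searched on the transcript strand for 3 such words, written with T in place of U as in the genome. These were TGTTTGTTTGT, the shorter TGTTTGT contained in it, and TGTGTGTGTGT. The regions were 1896 bases long in C9orf72, 4080 in Smcr8 and 1489 in Wdr41, each taken from the GENCODE M21 transcript with the longest one. The 2 places that matched are shown, each as 30 bases with the match in capitals, at chr4:35192563-35192592 on the minus strand for C9orf72 and at chr13:95022676-95022705 on the plus strand for Wdr41.
C9orf72: ttgttttgtttTGTTTGTtttcttggaaac
Wdr41: gtctacagaTGTGTGTGTGTacacacgtac

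For the shares given here, each longer UTR was searched only in its last bases, over the length of the UTR it was compared with. TGTTTGT occurred once in C9orf72, and 39.9% of the 4330 UTRs at least as long held it in that stretch. TGTGTGTGTGT occurred once in Wdr41, and 8.15% of the 5545 UTRs at least as long held that word. Smcr8 held none of the 3 words, although 66.6%, 23.4% and 11.1% of the 1070 UTRs at least as long held TGTTTGT, TGTGTGTGTGT and TGTTTGTTTGT. The longest form, TGTTTGTTTGT, was at 0 in C9orf72 and Wdr41 too, where 4.85% and 3.68% of UTRs of at least their lengths held it. TGTGTGTGTGT was at 0 in C9orf72, against 10.4%, and TGTTTGT at 0 in Wdr41, against 32.8%. A match describes these letters only and is no measured CELF1 binding site.

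C9orf72, the DENN protein for which the complex is named, was at 3.88, 3.91 and 3.83 log2 CPM in Control libraries 1 to 3. It was at 5.55, 6.30 and 6.22 log2 CPM in Celf1cKO libraries 1 to 3. The 3 Control libraries lay within 0.08 of each other, the Celf1cKO libraries spread over 0.76, and the lowest Celf1cKO library stood 1.64 above the highest Control library. Celf1cKO library 1, which kept the highest Celf1 transcript level, had the lowest C9orf72 of its group, and the part of Celf1 in that spread was not tested. These levels rested on 557 to 562 reads in Control and 2006 to 3835 reads in Celf1cKO libraries, against a detection floor of 3 reads. The group means were 3.87 ± 0.04 and 6.02 ± 0.41 log2 CPM (SD, n = 3 each), and the log2 fold-change was 2.15 with a standard error of 0.20.

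Smcr8, the other DENN protein and the tightest partner of C9ORF72, was at 5.41, 5.44 and 4.94 log2 CPM in Control and at 5.39, 5.34 and 5.21 in Celf1cKO libraries 1 to 3. The groups overlapped, and Control library 3 lay below all the others. Means were 5.26 ± 0.28 and 5.31 ± 0.10 (SD, n = 3 each), with a log2 fold-change of 0.05 and a standard error of 0.15. The sign of this value rested on Control library 3, without which the log2 fold-change was -0.11.

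Wdr41, the lysosomal anchor, was at 5.34, 6.05 and 5.43 log2 CPM in Control and at 5.14, 5.16 and 5.21 in Celf1cKO libraries 1 to 3. Every Celf1cKO library lay below every Control library, but by a gap of 0.12, and Control library 2 stood apart above the rest. Means were 5.61 ± 0.39 and 5.17 ± 0.04 (SD, n = 3 each), and the log2 fold-change was -0.44 with a standard error of 0.18. Without Control library 2 the log2 fold-change was -0.21.

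**Figure D1:**
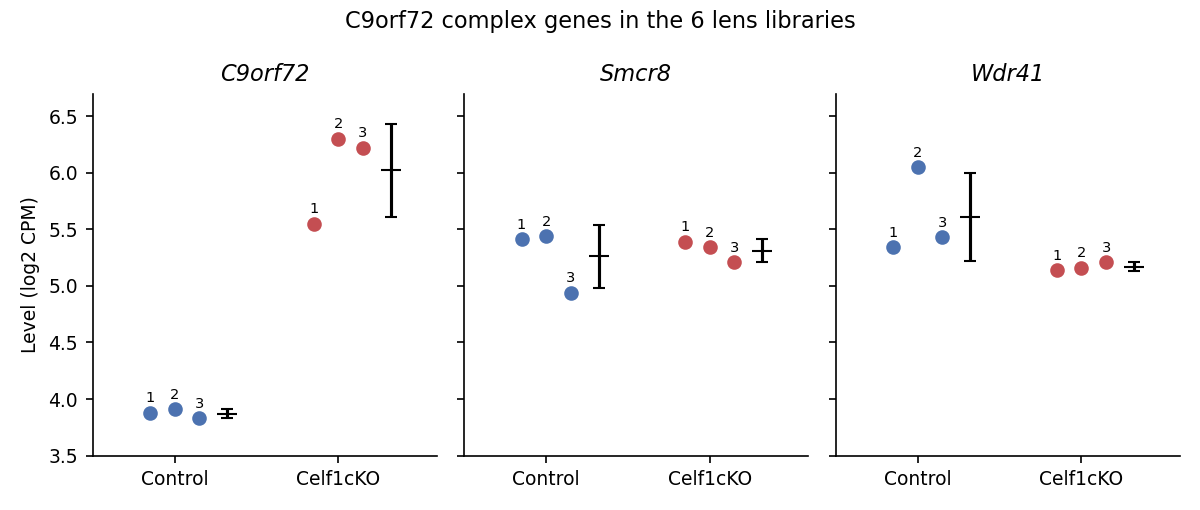
Levels of C9orf72, Smcr8 and Wdr41 in log2 CPM (y axis) in the 3 Control (blue) and 3 Celf1cKO (red) libraries, numbered by replicate; bars give the group mean and SD. C9orf72 is the only gene of the 3 with a wide gap between the groups, 1.64 on the log2 scale.

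By the cut-offs applied to the whole table, C9orf72 fell among the elevated genes, as was known when it was chosen, and Smcr8 and Wdr41 were not called. Over all genes tested 7.39% were called, 4.77% as elevated and 2.63% as reduced, and among expressed genes the shares were 6.24% and 3.44%. The groups did not overlap for 2 of the 3 genes, C9orf72 upward and Wdr41 downward, as they did for 36.5% of all genes, 19.5% upward and 17.0% downward. Nothing is read from these counts. By log2 fold-change C9orf72 stood 22nd among the 664 elevated genes and above 99.8% of expressed genes, Smcr8 above 54.8% and Wdr41 above 15.5%. Averaged over both groups, the 3 genes had near-equal levels, 5.35, 5.30 and 5.42 log2 CPM in the same order. These averages were above those of 71.4%, 70.4% and 72.7% of expressed genes. For C9orf72 the average matches neither group. Group means of the 3 genes were 3.87, 5.26 and 5.61 in Control and 6.02, 5.31 and 5.17 in Celf1cKO libraries.

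**Figure D2:**
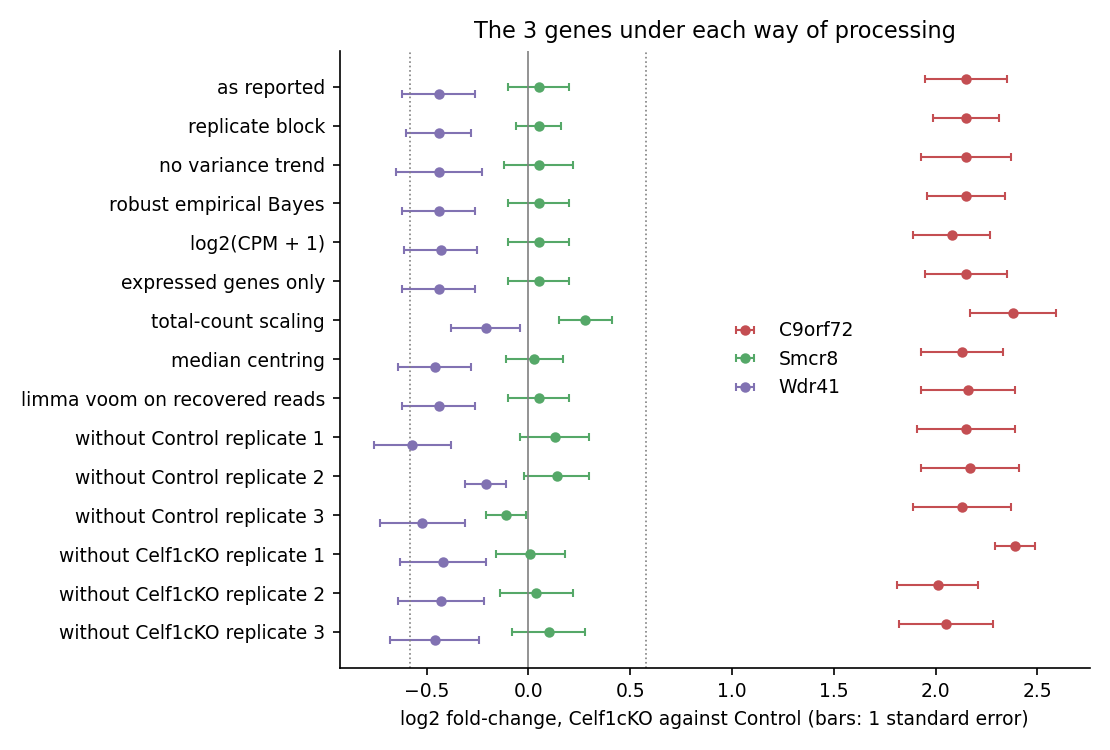
log2 fold-change of the 3 genes with 1 standard error (x axis) as reported and under each of 14 other ways of processing (y axis), with dotted lines at 0.58 in either direction. C9orf72 stays between 2.01 and 2.39, while Smcr8 stays between -0.11 and 0.28 and Wdr41 between -0.57 and -0.21.

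The size of the C9orf72 difference moved little with the processing. It was between 2.01, without Celf1cKO library 2, and 2.39, without Celf1cKO library 1. It no longer met the cut-offs without Control library 2 (log2 fold-change 2.17) and without Celf1cKO library 3 (2.05), fits in which 1 gene in the whole table was called. If libraries were scaled by their total reads in place of the authors' factors, the median expressed gene shifted by 0.23, and C9orf72, Smcr8 and Wdr41 were at 2.38, 0.28 and -0.21.

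To compare the genes with each other, CPM was divided by exon length, 4.60 kb for C9orf72, 8.08 kb for Smcr8 and 5.73 kb for Wdr41. In Control lenses the level per length was highest for Wdr41, at 8.71 ± 2.5 CPM per kb (7.04 to 11.6), followed by Smcr8 at 4.81 ± 0.89 (3.78 to 5.37) and C9orf72 at 3.18 ± 0.086 (3.08 to 3.26; SD, n = 3 each). In Celf1cKO lenses C9orf72 came out on top at 14.5 ± 3.8 CPM per kb (10.1 to 17.1), followed by Wdr41 at 6.28 ± 0.17 (6.15 to 6.47) and Smcr8 at 4.92 ± 0.33 (4.56 to 5.20; SD, n = 3 each). Within each group the ranges of neighbors in this order did not overlap, so C9orf72 went from the least to the most abundant transcript of the complex.

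As a share of the summed level per length of the 3 genes, C9orf72 made up 20.6%, 16.1% and 21.4% in Control libraries and 47.2%, 60.5% and 59.5% in Celf1cKO libraries 1 to 3. Its mean share was 19.4% ± 2.8 and 55.7% ± 7.4. The share of Smcr8 went from 29.0% ± 4.4 to 19.5% ± 4.1 and that of Wdr41 from 51.7% ± 6.0 to 24.8% ± 3.5 (SD, n = 3 each). Shares sum to 100%, so the lower shares of both partners go with the higher share of C9orf72 by construction.

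**Figure D3:**
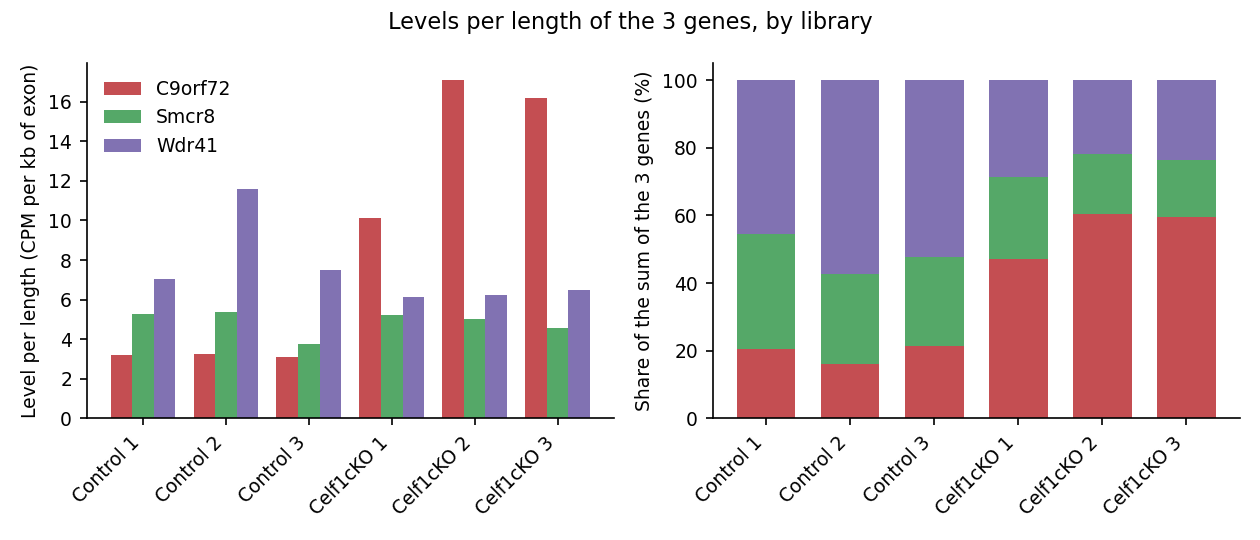
Left, level of each gene in CPM per kb of exon (y axis) in each library; right, its share in percent of the sum of the 3 genes. C9orf72 is the lowest bar in every Control library and the highest in every Celf1cKO library, where its share is between 47.2% and 60.5%.

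Ratios within a library do not depend on how libraries are scaled. The log2 ratio of C9orf72 to Smcr8 in CPM was -1.53, -1.53 and -1.10 in Control and 0.15, 0.97 and 1.01 in Celf1cKO libraries 1 to 3. The difference of the group means, -1.39 ± 0.25 and 0.71 ± 0.48 (SD, n = 3 each), was 2.10, and with each library left out in turn it was between 1.95 and 2.38. The log2 ratio of C9orf72 to Wdr41 was -1.46, -2.14 and -1.60 in Control and 0.41, 1.15 and 1.01 in Celf1cKO libraries, a difference of 2.59 (2.38 to 2.81 with a library left out). Both ratios were negative in all 3 Control libraries and positive in all 3 Celf1cKO libraries. The ratio of Smcr8 to Wdr41 overlapped between the groups, at -0.34 ± 0.37 and 0.14 ± 0.13 (SD, n = 3 each).

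The neighbors of each gene on its chromosome were examined next. Mob3b, 33.8 kb from C9orf72, was at 4.67, 4.80 and 5.11 log2 CPM in Control and 4.62, 5.33 and 5.11 in Celf1cKO libraries, and its log2 fold-change was 0.16 (standard error 0.20). Lingo2, the nearest gene of the table on the other side at 480472 bp, was barely detected, at -0.18 log2 CPM or lower in every library. The neighbors of Smcr8, Top3a and Shmt1, had log2 fold-changes of 0.12 (standard error 0.20) and -0.32 (standard error 0.38), and those of Wdr41, Tbca and Pde8b, of 0.20 (standard error 0.09) and -0.73 (standard error 0.41). None of the 6 neighbors was called in limma (adjusted p 0.161 to 0.729) or in limma voom on the recovered reads, and 1, Tbca, had an unadjusted p-value under 0.05. Smcr8 shares 184 bases of exon with Shmt1 on the opposite strand. C9orf72 shares 247 bases of exon with the antisense gene Gm12367, and Wdr41 shares 564 with the antisense gene Gm48350 and 160 with the pseudogene Gm48349 on its own strand, none of which is in the table. The libraries were strand-specific, but the strand setting of the counting is not given in the sources used here. Reads in these stretches may therefore not all have been counted for C9orf72, Smcr8 and Wdr41.

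Genes whose proteins are tied to the complex were read from 7 lists with 104 genes, of which 101 were in the table and 99 were expressed. In limma 11 were called, 8 elevated and 3 reduced, or 10.9% of those in the table, where 7.39% of all genes and 9.68% of expressed genes were called. With the replicate number as a block 14 were called, these 11 and Wdr59, Tuba4a and Rab32. The median log2 fold-change of the 101 genes was 0.09, against -0.04 over all genes and 0.00 over expressed genes. The number of calls moved with single libraries. In limma 0 of the 101 were called without Control library 2 or without Celf1cKO library 3, fits that called 1 gene in the whole table. At an unadjusted p-value under 0.05, 45 and 33 of the 101 passed in these fits, against 46 with all libraries. In limma 4 were called if no trend of variance with expression was fitted. Under total-count scaling 28 were called, all elevated, with 8 of the 11 among them, and the 3 reduced genes, Rragc, Rptor and Mitf, were no longer called.

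**Figure D4:**
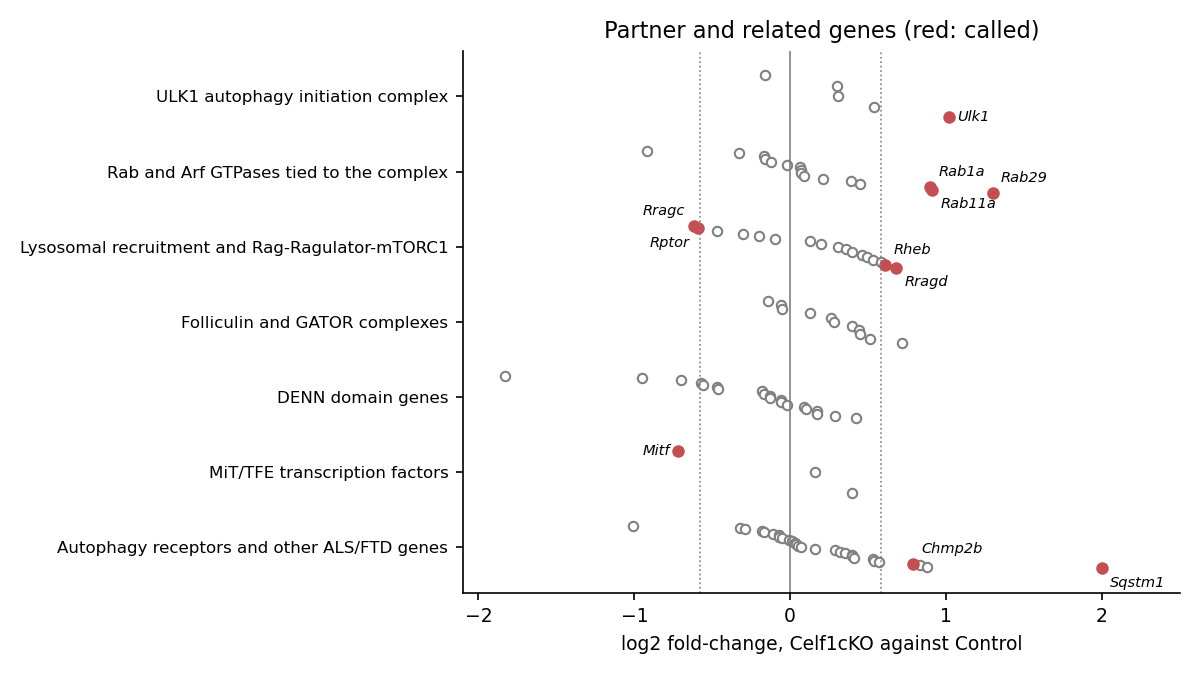
log2 fold-change (x axis) of each gene of the 7 lists (y axis), 1 point per gene, with called genes in red and dotted lines at 0.58 in either direction. The 11 called genes run from Mitf at -0.72 to Sqstm1 at 2.0, and the folliculin, GATOR and DENN lists hold none, although Wdr59 at 0.72 was called with the replicate block.

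The ULK1 complex, the kinase complex that starts autophagosome formation, had 1 of 5 genes called. Ulk1, which encodes its kinase, was at 4.69, 4.48 and 4.54 log2 CPM in Control and at 5.17, 5.79 and 5.80 in Celf1cKO libraries 1 to 3, without overlap. Its log2 fold-change was 1.02 (standard error 0.18, limma adjusted p = 0.0174), and like C9orf72 it was lowest of its group in Celf1cKO library 1. The scaffold Rb1cc1 and the subunits Atg13 and Atg101 were at 0.31, -0.16 and 0.54 (limma adjusted p = 0.163, 0.346 and 0.0618), and Atg13 turned to 0.06 under total-count scaling.

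Of the Rab and Arf GTPases, which the complex binds or acts on, 16 of 17 were in the table and 3 were elevated, with a median log2 fold-change of 0.07. Rab1a, which acts between the endoplasmic reticulum and Golgi, was at 6.35, 6.24 and 6.16 log2 CPM in Control and 6.94, 7.29 and 7.21 in Celf1cKO libraries, and the log2 fold-change was 0.90 (standard error 0.11, limma adjusted p = 0.0094). Rab11a, a GTPase of recycling endosomes, was elevated by 0.91 (standard error 0.15, limma adjusted p = 0.0162). Rab29, a GTPase of the Golgi and lysosome, was elevated by 1.30 (standard error 0.28, limma adjusted p = 0.0305) at a low level, with 38 reads in its lowest library. Rab8a and Rab39b, which also bind the complex, were at -0.12 and 0.45 (limma adjusted p = 0.439 and 0.0656). Arf1, Arf5 and Arf6, on which the complex acts as a GTPase-activating protein, were at 0.06, 0.07 and -0.02 (limma adjusted p = 0.72, 0.66 and 0.951). Rab32 was at -0.92 and was called with the replicate block only (limma adjusted p = 0.0475, against 0.0835 without it). Rab8a, Arf5 and Arf6 changed sign under total-count scaling or with a library left out.

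The lysosomal list, which covers the receptor of the complex and the Rag, Ragulator and mTORC1 genes of amino acid sensing, had 2 of 17 genes elevated and 2 reduced, and 8 had an adjusted p-value under 0.05, 5 of them higher and 3 lower. The share of all genes at that cut-off was 11.9%, and of expressed genes 14.6%. The Rag GTPase genes went both ways. Rragd was at 4.93, 4.59 and 4.40 log2 CPM in Control and 5.28, 5.40 and 5.28 in Celf1cKO libraries (log2 fold-change 0.68, limma adjusted p = 0.0275), whereas Rragc was at 6.31, 6.38 and 6.18 and at 5.69, 5.67 and 5.66 (-0.62, limma adjusted p = 0.0107). Rheb, the GTPase that activates mTORC1, was elevated by 0.61 (limma adjusted p = 0.0196), and Rptor, which encodes the substrate-binding subunit of mTORC1, was reduced by a log2 fold-change of -0.59 (limma adjusted p = 0.04). Slc66a1, the lysosomal amino acid transporter to which WDR41 binds, was at 0.49 (standard error 0.27, limma adjusted p = 0.258). The median of the list was 0.31.

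The folliculin and GATOR list had 0 of 11 genes called in limma, and 0 in limma voom, with 5 at an unadjusted p-value under 0.05, 1 of which also passed after adjustment, Sec13 at 0.51. An unadjusted p-value under 0.05 was reached by 29.9% of all genes and 34.0% of expressed genes. With the replicate block 1 gene of the list was called, Wdr59, a GATOR subunit, at 0.72 (limma adjusted p = 0.0307, against 0.0585 without the block). The median of that list was 0.28. Flcn, whose protein is also a DENN protein acting on Rag GTPases, was at 0.28 (limma adjusted p = 0.232). The other DENN genes had 0 of 20 called in limma, and 0 in limma voom, with 7 at an unadjusted p-value under 0.05, 1 of which also passed after adjustment, Sbf2 at -0.47. Their median was -0.13, where C9orf72 and Smcr8 were at 2.15 and 0.05. Of the MiT/TFE factors, Mitf was reduced by a log2 fold-change of -0.72 (limma adjusted p = 0.0225), and Tfeb and Tfe3 were at 0.16 and 0.40 (limma adjusted p = 0.55 and 0.0788).

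The list of autophagy receptors and other genes of ALS and FTD had 2 of 29 genes called, both elevated, and a median of 0.07. Sqstm1, the gene of the autophagy receptor p62, was at 7.06, 6.96 and 6.94 log2 CPM in Control and at 8.43, 9.49 and 9.04 in Celf1cKO libraries 1 to 3. Its log2 fold-change was 2.0 (standard error 0.24, limma adjusted p = 0.0094), the nearest in size to C9orf72 of the 101 genes. Chmp2b, a subunit of the ESCRT membrane-cutting machinery, was elevated by 0.79 (limma adjusted p = 0.0105). Tuba4a, an alpha tubulin gene, was at 0.88 and was called with the replicate block only (limma adjusted p = 0.0252, against 0.0568 without it). Optn, another autophagy receptor, and Tbk1, the kinase that phosphorylates it, were at -0.05 and 0.01 (limma adjusted p = 0.861 and 0.965), and both changed sign in some of the other settings.

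Genes were also ranked by how closely their profile over the 6 libraries followed that of each gene, as the root mean square difference of log2 CPM after each gene was centred on its own mean. For C9orf72 the nearest expressed gene was Sqstm1, at 0.14 on the log2 scale, where the median of expressed genes was 1.11. It was followed by Ddit3, the stress-induced transcription factor CHOP (0.145), Slc25a1, the mitochondrial citrate carrier (0.148), Bend4 (0.169) and B4galt6, which makes lactosylceramide (0.191). Ddit3 was at 2.33, 2.37 and 2.29 log2 CPM in Control and at 4.02, 4.49 and 4.35 in Celf1cKO libraries. The log2 fold-changes of these 5 genes were between 1.84 and 2.0, a size to which the choice by profile binds them. Smcr8 was nearest to Oscp1 (0.0335), Cox8a (0.0348) and Slc41a3 (0.0458), against a median of 0.278, and all of them share its low value in Control library 3. Wdr41 was nearest to Enox1 (0.0682), Nmnat1 (0.0761) and Sgsh, a lysosomal sulfamidase (0.0869), against a median of 0.387, and all of them share its high value in Control library 2. The choice by profile binds the genes nearest to Smcr8 and Wdr41 to these shared values. Expressed genes within 0.15 numbered 3 for C9orf72, 1173 for Smcr8 and 67 for Wdr41.

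**Figure D5:**
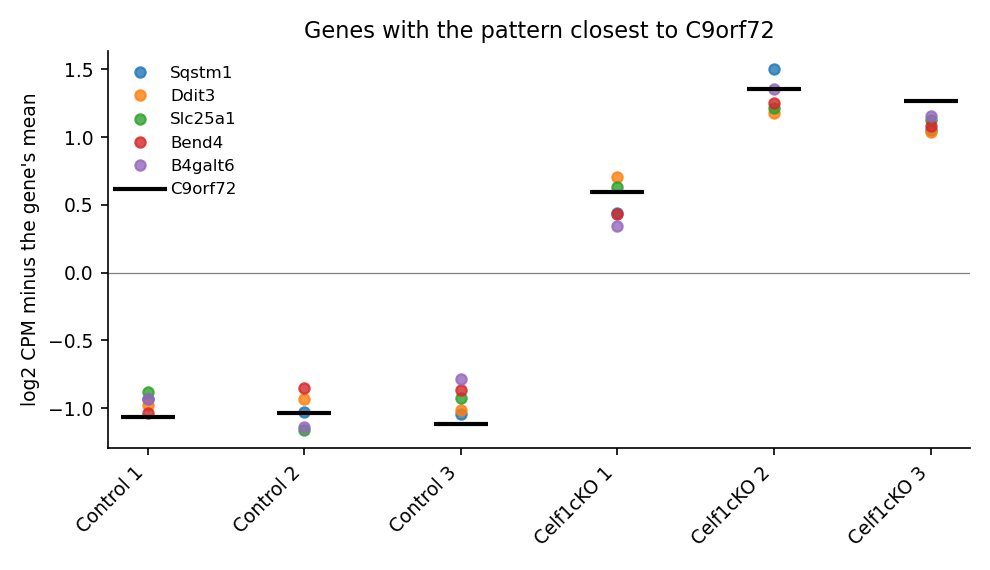
log2 CPM minus each gene's mean over the libraries (y axis) in the 6 libraries (x axis) for C9orf72 (black bars) and the 5 expressed genes of nearest profile (colored points). All 6 genes are lowest in the 3 Control libraries and lower in Celf1cKO library 1 than in Celf1cKO libraries 2 and 3.

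Markers of other cell types were read beside the C9orf72 difference. Macrophage and leukocyte markers, 10 of 12 of which were in the table, with Ptprc and Aif1 not among them, summed to 6.16 to 13.6 CPM in Control and 7.20 to 12.6 CPM in Celf1cKO libraries. Blood, retina and neuron, and cornea and skin markers, with 1 of 6, 6 of 9 and 2 of 10 in the table, summed to at most 1.35, 25.4 and 6.92 CPM in any library, and each sum was lower in Celf1cKO libraries, apart from 1 overlapping value for blood. Within the retina and neuron list single genes went both ways, with Elavl4 and Rbfox3 reduced (-1.86 and -0.93, limma adjusted p = 0.0269 and 0.0445, Rbfox3 not with the replicate block) and Elavl3 at -1.97, -2.46 and -0.10 log2 CPM in Control and 0.43, 0.65 and 0.79 in Celf1cKO libraries (2.13, limma adjusted p = 0.0612). All 6 endothelial markers were in the table and summed to 85.2 to 106 CPM in Control and to 103, 21.8 and 49.3 CPM in Celf1cKO libraries 1 to 3, and their median log2 fold-change was -1.21. Among the lens markers, Foxe3, a transcription factor of the lens epithelium, was reduced, at 4.88, 5.06 and 4.91 log2 CPM in Control and 3.41, 1.63 and 3.77 in Celf1cKO libraries (-2.01, limma adjusted p = 0.0434). Cdh1, the epithelial cadherin, was at 6.80, 6.91 and 7.08 and at 6.79, 4.27 and 5.70 (-1.34, limma adjusted p = 0.148). Both were lowest in Celf1cKO library 2, as were the endothelial markers. The fiber cell gene Bfsp1 was reduced by a log2 fold-change of -1.47 (limma adjusted p = 0.0139) and Cryab by -0.73 (limma adjusted p = 0.0387, not called with the block). The part of any of these markers in the C9orf72 difference was not tested.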

How the data were processed

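Trimmed reads were aligned by the authors to GRCm38.p6 with STAR 2.7.8a, and those mapped uniquely were counted with featureCounts 2.0.0. The authors removed genes of very low CPM and normalized the libraries in edgeR. They deposited log2 CPM values with a small prior count for each of the 6 libraries, and all 6 columns were used. The authors' own fold-changes, F statistics (a score), p-values and false discovery rates were also deposited and were not used, apart from their average log2 CPM, which set the expression cut-off.

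Groups were compared with limma 3.58.1 in R 4.3.3 on the log2 values, with a variance trend and no block, and Benjamini-Hochberg adjustment covered all 13931 genes. limma took the place of the authors' edgeR test because the deposited values are logged. Fold-changes on this scale understate those of low genes. The p-values measure the spread between these pools only. Prior degrees of freedom were 3.4. The members and gene lists were chosen with earlier results of these data known. Named genes were the 3 members, Celf1, the called genes of each list, the direct partners, the nearest genes on either side and those of closest profile. Tfe3, Tfeb, Sec13, Sbf2, Wdr59, Rab32, Tuba4a and the single marker genes fall outside this rule and were named after their values were seen. Read numbers were recovered from the spacing of the values, and 100% of those under 10000 reads came out whole within 0.05 read. The labels share replicate numbers, and deviations of same-numbered libraries correlated at 0.26, 0.39 and 0.38, so a replicate block was fitted as an alternative, although the paper describes no pairing. The other alternatives were no variance trend, robust empirical Bayes, log2(CPM + 1), expressed genes only, total-count scaling, median centring, limma voom on the recovered reads and each library left out in turn. Simulated counts for 13931 genes in this comparison, with 200 changed by 2 on the log2 scale, gave 97.0% and 95.5% recovered at dispersions of 0.01 and 0.05. Of the calls in these simulations, 0.0% and 3.54% were false. Only well-covered genes were changed there, and smaller changes, such as those of most called genes of the lists, were not simulated. Exon lengths, positions and UTRs came from GENCODE M21, which held 13928 of the gene identifiers. Figures were drawn with matplotlib 3.10.9.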

Additional observations from a re-analysis of the deposited data

How the results depend on the processing

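C9orf72 and Wdr41 kept their direction under all alternatives run, and the ratios of C9orf72 to Smcr8 and to Wdr41 did so under log2(CPM + 1) and with each library left out (1.95 to 2.38 and 2.38 to 2.81). With a library left out C9orf72 ranged from 2.01 to 2.39, Smcr8 from -0.11 to 0.14 and Wdr41 from -0.57 to -0.21, and Smcr8 was at 0.28 under total-count scaling. With the replicate block all 11 called genes of the lists stayed called, the 3 genes kept their side of the cut-offs, and 1279 genes and 14 listed ones were called. The 1030 called genes became 421 without the variance trend and 1867 under total-count scaling, where 1663 were elevated and 204 reduced (89.1% elevated, against 64.5%), and ranged from 1 to 1916 with a library left out, with 1 without Control library 2 or Celf1cKO library 3. The 11 listed genes called became 4 without the variance trend and 28 under total-count scaling, and ranged from 0 to 20 with a library left out. Of 558 recomputed values of the 40 other named genes, 472 stayed on their side, 63 lost and 3 gained their call, and 20 changed sign, the cause of which was not tested. With a library left out, genes that changed sign ranged from -0.02 to 0.12 (Arf5), -0.13 to 0.08 (Arf6), -0.20 to 0.09 (Optn), -0.69 to 0.06 (Shmt1), -0.11 to 0.15 (Oscp1), -0.12 to 0.10 (Cox8a) and -0.10 to 0.19 (Slc41a3), and Tbk1 was at -0.07 without Celf1cKO replicate 1 and -0.06 without Control replicate 2. Under total-count scaling these were Atg13 (0.06), Rab8a (0.11), Arf6 (0.21) and Optn (0.18), and under median centring Tbk1 (-0.01) and Cox8a (-0.01). Depth limits only the lowest genes, since 3 reads correspond to 0.0609 to 0.0807 CPM.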
